A study of Mus musculus with 8 samples.

Results

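The endothelin system was described here through 7 genes of 27962 gene names on the array, read by 14 of its 41174 probes, in cultured smooth muscle cells of the mouse aorta. A probe belonged to it by its gene name in the scanner files, and no measured value was used to assign it. The names were Edn1, Edn2 and Edn3 (the ligands), Ednra and Ednrb (the receptors), and Ece1 and Ece2 (the converting enzymes). These genes were themselves chosen with earlier results of these data known. Edn1 and Edn2 had 1 probe each, Edn3, Ednrb, Ece1 and Ece2 had 2 each, and Ednra had 4. The 8 one-colour arrays came from primary vascular smooth muscle cells of C57BL/6 aortas, 4 cultures with 1 µM angiotensin II (the AngII group) and 4 with the same dose and 200 ng/ml cyclosporin A (the AngII+CsA group). Every culture thus carried angiotensin II, and cells without it were not analysed here. No transgene, deletion, age or length of treatment was given in the sources used here. The arrays set cells with and without cyclosporin A side by side under angiotensin II; the drug binds cyclophilin and blocks the phosphatase calcineurin.

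Endothelins are short peptides that contract arteries for a long time. They are cut from larger precursors, first by furin-like proteases and then by endothelin converting enzymes, and act on 2 G-protein-coupled receptors. In the vessel wall endothelial cells are the main source of endothelin-1, the Edn1 product. Smooth muscle carries mostly the A receptor, which signals through Gq and phospholipase C to calcium, while the B receptor on endothelium releases nitric oxide and clears the peptide. Angiotensin II is a known inducer of Edn1 in vascular cells.

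Each value rests on 1 oligonucleotide of 60 bases, with 1 spot per array for each of the 14 probes. The first 30 bases of 9 of them are shown, 5′ to 3′ in the sense direction, because probes for the same gene gave different results and the results below turn on which one was read. No capitals are used.
Edn1 A_51_P115005: cagtaaaaatatgttcccgtatgtattgta
Ednra A_52_P622988: gtagcaattatccctgactgacagtagtgt
Ednra A_51_P457734: ttccctcttcacttaagccgcattttgaag
Ednra A_52_P156190: ggccctggtaactctactgggcattttccc
Ednra A_51_P417991: gttcattttgacctattctggttagaatca
Ednrb A_51_P262964: agcaataaatacagctcgtcttgaaggcaa
Ednrb A_52_P577662: aaggacgccccagatcttcaattttaagtt
Ece1 A_51_P466423: cagtcacaccaaaacacctggcttaaatgt
Ece1 A_52_P635278: ttttttgtattattgtgttttgtgctactg
The probes of Ednra, Ednrb and Ece1 are listed from the 5′ to the 3′ side of their gene. In mm7, the build of the array annotation, the Edn1 probe lies at chr13:41748495-41748554 on the plus strand. The Ednra probes lie on the minus strand of chromosome 8, the bright A_52_P156190 at chr8:76203860-76203919. The Ednrb probes lie on the minus strand of chromosome 14, A_51_P262964 at chr14:98249421-98249480 and A_52_P577662 at chr14:98247658-98247717, which is 1763 bases further 3′. The bright Ece1 probe lies at chr4:137343591-137343650, 48965 bases 3′ of the other Ece1 probe. No mm7 gene models were used here, so it is not stated whether a probe sits in an exon or a UTR.

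The scanner software marked 9 of the 14 probes as well above background on 4 or more of the 8 arrays, and these 9, covering all 7 genes, were tested. The other 5 were well above background on none of the arrays: Edn3 A_52_P20753, Ece1 A_51_P466423 and all the Ednra probes but A_52_P156190. Of 11 probes designed on a RefSeq mRNA, 9 were above background on some array, against 0 of 3 designed on a RIKEN cDNA clone. On all 8 arrays the scanner software put a substitute value, its stand-in for spots not above background, on the clone-based Ece1 and Ednra probes A_51_P466423 and A_51_P417991, at linear signals of 1.63 to 2.15. For Ednra and Ece1 the expression value therefore comes from a single probe. The RefSeq table also lists a joined Eef1akmt4-Ece2 name for Ece2, so the Ece2 probes may read that transcript too.

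Levels are log2 signals minus the 75th percentile of the array, so each unit is a doubling and 0 is the signal at that percentile. Over the arrays, 42.8% to 51.7% of 43379 spots were well above background, the lowest such signal was between -3.87 and -3.01, and 19529 probes were tested. In each group the cultures are numbered 1 to 4. Arrays of the same number shared a slide and a scan, so "culture number" below stands for culture, slide and scan together, which cannot be told apart. Arrays of the same number deviated together, so treatment differences are also given within each number, and with the number as a block. As a check of the cell type, 7 of 8 smooth muscle markers were tested. With AngII the means of Acta2, Tagln, Cnn1, Smtn and Lmod1 ran from 3.26 to 8.70, and Myh11, a late marker of the contractile state, was at 0.23 ± 0.40 (SD, n = 4). Des was above background on 2 of 4 AngII and 3 of 4 AngII+CsA arrays, and Myocd on fewer than 4 arrays in all.

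Cyclosporin A changed none of the 9 tested endothelin probes by limma's test. On the groups alone 0 of 9 passed an adjusted p of 0.05, where 0% of the 19529 probes did, and 0 of 9 had an unadjusted p under 0.05 (58 of all probes did). With culture number as a block 0 of 9 passed, where 0.0102% of all probes did (2 probes), and 1 of 9 had an unadjusted p under 0.05 (975 of all did). With the number as a random block, 0 of 9 passed, where 0.041% of all did (8 probes), and again 1 of 9 had an unadjusted p under 0.05 (1282 of all did). The smallest adjusted p of an endothelin probe was 0.9999, 0.932 and 0.75 in these fits. A p above the threshold does not show that levels were equal, so the interval of each difference is given with its gene.

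**Figure D1:**
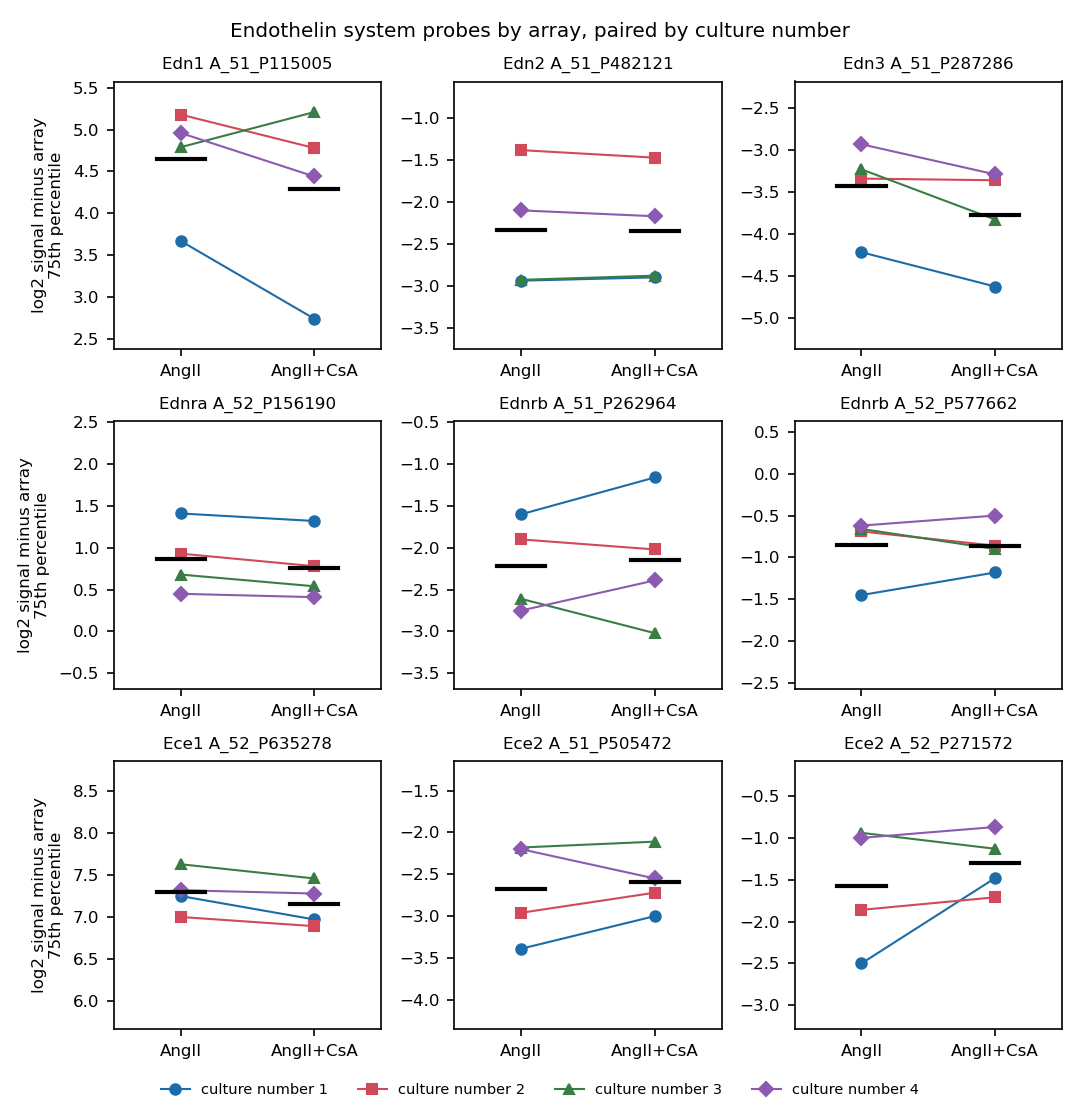
Log2 signal minus the array's 75th percentile (vertical axis, 3.2 units in each panel) for the 9 tested endothelin probes, with AngII and with AngII+CsA. Symbols are arrays, lines join arrays of the same culture number and black bars are the means of 4; the lines of a panel lie further apart than they slope for most probes, as for Ednra (1.41 and 1.32 in culture 1, 0.45 and 0.41 in culture 4).

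Edn1, the ligand made in the highest amounts by vessel walls, was well above background on all 8 arrays. Its log2 signals with AngII were 3.67, 5.18, 4.79 and 4.96 in cultures 1 to 4, and with AngII+CsA they were 2.74, 4.78, 5.21 and 4.44. Culture 1 was the lowest of each group, and the groups overlapped. The mean of AngII arrays was 4.65 ± 0.67 and that of AngII+CsA arrays 4.29 ± 1.08 (SD, n = 4 each). Within numbers the AngII+CsA minus AngII differences were -0.93, -0.40, 0.43 and -0.52, lower in 3 of 4. The mean difference of -0.36, a level 0.781 times that with AngII, had a 95% interval of -1.52 to 0.81 on the groups alone and of -0.88 to 0.17 with the block. Cyclosporin effects on Edn1 beyond a fall to 0.543 times or a rise to 1.12 times lay outside the blocked interval.

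Edn2, the ligand first known as vasoactive intestinal contractor in mice, was dim but above background on all 8 arrays. It gave -2.94, -1.38, -2.93 and -2.10 with AngII and -2.90, -1.47, -2.88 and -2.17 with AngII+CsA. Both arrays of a number agreed to within 0.09, so the 2 groups were nearly superimposed. The difference was -0.02 with a blocked 95% interval of -0.26 to 0.23. Edn3, the ligand that prefers the B receptor and acts on neural crest cells, was at the edge of detection. Its probe A_51_P287286 was above background in cultures 2 and 4 of both groups and in neither array of cultures 1 and 3. It read -4.22, -3.34, -3.23 and -2.93 with AngII and -4.63, -3.36, -3.83 and -3.29 with AngII+CsA. It was lower in 4 of 4 numbers, by 0.35 on average with a blocked 95% interval of -0.66 to -0.04, and this was the probe with an unadjusted p under 0.05 (0.0329, adjusted p = 0.932, limma with the block). In the detected cultures 2 and 4 the differences were -0.02 and -0.36. The other Edn3 probe was above background on no array.

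Ednra, the A receptor through which endothelin-1 contracts smooth muscle, was read by A_52_P156190. It gave 1.41, 0.93, 0.68 and 0.45 with AngII and 1.32, 0.78, 0.54 and 0.41 with AngII+CsA. The order of the cultures was the same in both groups, and each AngII+CsA value lay just under its AngII partner. The mean was 0.87 ± 0.41 and 0.76 ± 0.40 (SD, n = 4 each), and the 4 differences were -0.08, -0.15, -0.14 and -0.04. The mean difference of -0.10 had a 95% interval of -0.77 to 0.56 on the groups alone and of -0.35 to 0.14 with the block, or 0.787 to 1.10 times. These paired gaps were alike, but their mean did not pass (limma, adjusted p = 0.935 with the block), and it is close to the median absolute difference over all tested probes, 0.11. Before scaling, the linear Ednra signals were 230, 240, 104 and 141 with AngII and 256, 214, 122 and 159 with AngII+CsA. The fall in every number thus held only after scaling. The undetected probes Ednra A_51_P417991 and Ece1 A_51_P466423 were also lower in 4 of 4 after scaling, with differences of -0.13 and -0.14.

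Ednrb, the B receptor, was read by 2 probes above background on all 8 arrays, both dim. A_52_P577662 gave -1.45, -0.69, -0.66 and -0.62 with AngII and -1.18, -0.86, -0.90 and -0.50 with AngII+CsA. A_51_P262964 gave -1.60, -1.90, -2.61 and -2.75 with AngII and -1.16, -2.02, -3.02 and -2.39 with AngII+CsA. Neither separated the treatments. Their differences were 0.00, with a blocked 95% interval of -0.31 to 0.30, and 0.07, with one of -0.34 to 0.47, each higher in 2 of 4 numbers.

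The Ednrb probes did part over the cultures, and in opposite ways. Culture 1 was the lowest for A_52_P577662 (mean of its arrays -1.32, against -0.78, -0.78 and -0.56 in cultures 2 to 4) and the highest for A_51_P262964 (-1.38, against -1.96, -2.82 and -2.57). Within an array, A_52_P577662 minus A_51_P262964 was 0.15, 1.21, 1.95 and 2.13 with AngII and -0.02, 1.16, 2.13 and 1.89 with AngII+CsA. This within-array difference moved by 1.98 between numbers and by at most 0.24 between the arrays of a number. Both arrays of culture 1 were lower in it than all 6 others, also under normexp background correction, where the values were smaller (0.06 and -0.17 in culture 1, 0.38 to 0.78 in the others). That setting added an offset of 50 before the log2, which narrows differences between dim signals. The linear signals were 10.3 to 45.8 at A_51_P262964 and 31.6 to 84.9 at A_52_P577662. This contrast was picked after its values were seen and was not tested, and it leaves a culture profile for Ednrb undefined, since it depends on the probe.

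Ece1, the converting enzyme that cuts big endothelin-1, gave the brightest signal of the members at its RefSeq probe, a linear signal of 12800 to 18600. The log2 values were 7.25, 7.0, 7.63 and 7.32 with AngII and 6.97, 6.89, 7.46 and 7.28 with AngII+CsA. The groups overlapped. Before scaling, the linear signal fell in cultures 1 (13200 to 12800) and 2 (16000 to 14800). It rose in cultures 3 (12900 to 14800) and 4 (16400 to 18600). After scaling, the differences of -0.29, -0.11, -0.17 and -0.04 were all negative. Their mean of -0.15 (0.901 times) had a 95% interval of -0.70 to 0.40 on the groups alone and of -0.40 to 0.10 with the block. Ece2, a related enzyme best known from neurons, was dim. Its probe A_52_P271572 gave -2.5, -1.86, -0.94 and -1.0 with AngII and -1.48, -1.71, -1.13 and -0.87 with AngII+CsA. Only culture 1 moved by more than 0.2, by 1.01, and the mean difference of 0.28 had a blocked 95% interval of -0.21 to 0.76. Its probe A_51_P505472 was above background on 3 of 4 AngII and 4 of 4 AngII+CsA arrays and differed by 0.09, with a blocked 95% interval of -0.27 to 0.45.

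**Figure D2:**
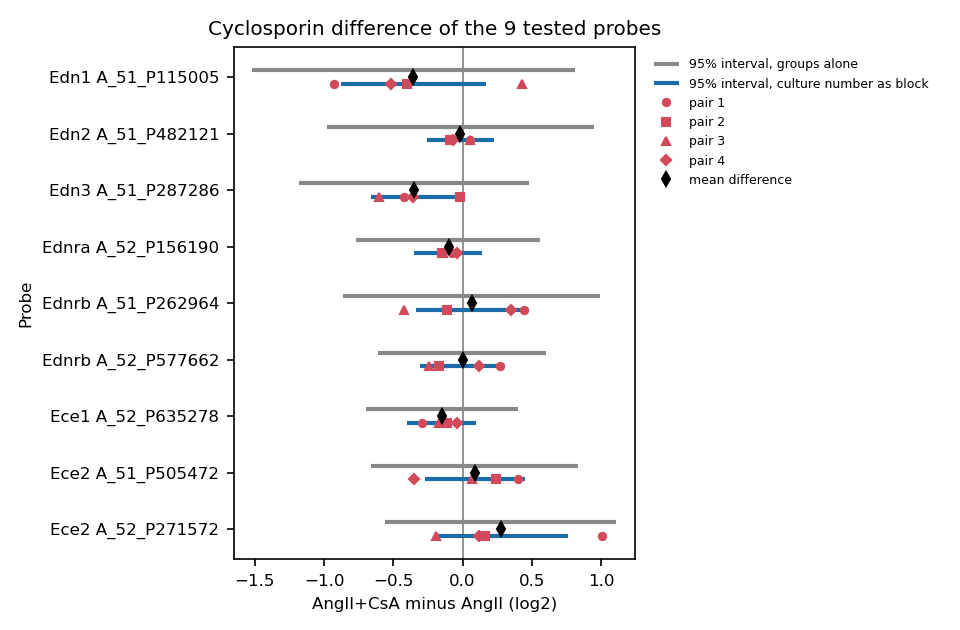
AngII+CsA minus AngII (log2, horizontal axis) for the 9 tested endothelin probes. Black diamonds are means of 4 differences, red symbols the differences within each culture number, and bars the 95% intervals on the groups alone (grey) and with the number as a block (blue); every grey bar crosses 0, and of the blue bars that of Edn3 alone does not (-0.66 to -0.04).

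Over the 19529 tested probes, 97.2% of the differences were within 0.5, and so were those of all 9 endothelin probes. Among the 9, the differences ran from -0.36 (Edn1) to 0.28 (Ece2 A_52_P271572), around a median over all probes of -0.01. The widest blocked interval was that of Edn1 and the narrowest that of Ednra, followed by Edn2.

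The scaled signals of the members varied far more with culture number than with cyclosporin. A limma F test of the number, with treatment in the model, passed an adjusted p of 0.05 for 9 of 9 tested endothelin probes, where 66.9% of all tested probes passed. Such differences were thus the rule on these arrays. For Edn2 the number held 99.7% of the variation over the 8 arrays and treatment 0.0164%. For Ednra the shares were 97.5% and 2.15%, for Edn1 85.5% and 4.96%, and the lowest share of the number was 75.3%, at Ece2 A_52_P271572. The medians over all tested probes were 87.3% for the number and 1.82% for treatment. Undetected probes on substitute values showed large shares too, 92.1% at Ednra A_51_P417991 and 92.7% at Ece1 A_51_P466423. Their culture means ranged over 1.62 and 1.64 times, against 1.52 times at the bright Ece1 probe. A large share of the number thus need not reflect expression, and the part of the array scaling was not tested. The number has 4 levels and treatment 2, and the shares are not adjusted for this. The number would thus be expected to hold the larger share even with no effect of either.

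**Figure D3:**
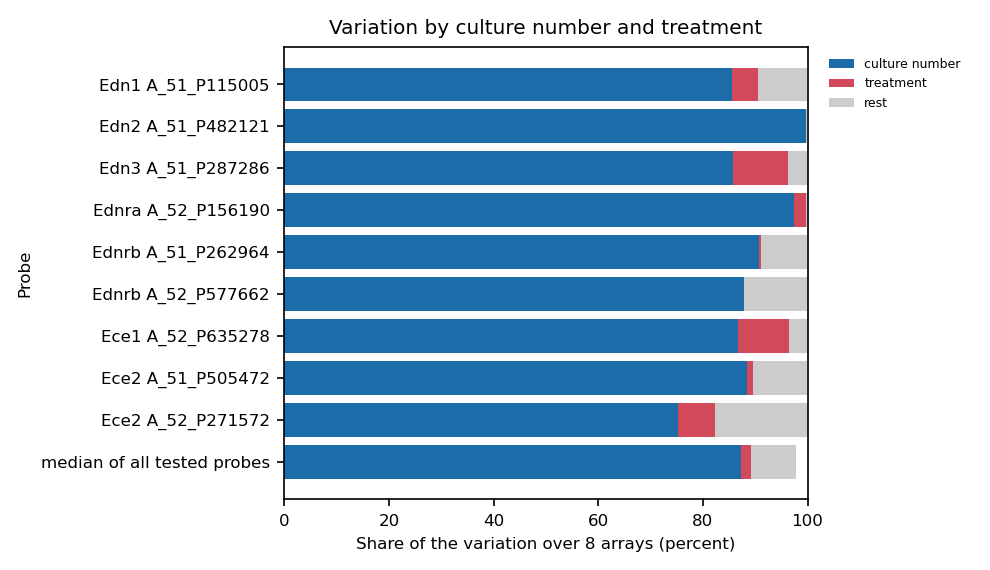
Share of the variation over 8 arrays (percent, horizontal axis) held by culture number (blue), treatment (red) and the rest (grey) for the 9 tested endothelin probes. The last bar gives the 3 medians over all tested probes, which need not sum to the full length. Treatment holds at most 10.5% (Edn3), and the number at least 75.3%. The shares are not adjusted for the 4 levels of the number and the 2 of treatment.

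Edn1 was set apart by culture 1. Its culture means were 3.21, 4.98, 5.00 and 4.70, a range of 3.46 times (adjusted p = 0.0095, limma F test). Without culture 1 the adjusted p was 0.514, so the call rests on that culture. Ednra went the other way, with 1.37 in culture 1 and 0.86, 0.61 and 0.43 in the others, a range of 1.91 times (adjusted p = 0.0085, and 0.0583 without culture 1). Edn1 was lowest and Ednra highest in culture 1 under each of the 4 other scalings and background settings run. Within an array, Edn1 minus Ednra was 2.26 and 1.42 in culture 1 and 4.00 to 4.67 in the other 6 arrays.

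Edn2 was highest in culture 2 (-1.43, against -2.92, -2.90 and -2.13, adjusted p = 0.00227), the smallest p of the members. It passed in every setting run, also without any 1 culture. The Edn3 probe also passed (adjusted p = 0.00648, but 0.0896 with normexp background correction and 0.172 without culture 1). As it was not above background in cultures 1 and 3, that test rests in part on undetected signals, and no fold or order of its cultures is given. Both Ece2 probes were lower in cultures 1 and 2 (A_52_P271572 at -1.99 and -1.79) than in 3 and 4 (-1.04 and -0.94), with adjusted p of 0.0343 and 0.0179 (limma F test). These lost their calls without culture 2 or 4 (0.0613 and 0.0809) or with no filter on dim probes (0.086) at A_52_P271572, and without culture 3 (0.0546) at A_51_P505472. Ece1 had the narrowest range, 1.52 times (adjusted p = 0.0424), and lost its call under quantile normalization (0.363), in the authors' deposited table of log2 values (0.384) and without culture 2, 3 or 4 (0.15, 0.212 and 0.0835). Its highest mean was in culture 3, but in culture 4 under those normalizations. The Ednrb probe A_52_P577662 (adjusted p = 0.0391) lost its call in the same settings, at 0.0562 and 0.0545, with normexp background correction (0.0557), with no filter (0.0553) and without culture 1, 2 or 4 (0.323, 0.0511 and 0.114). A_51_P262964 (adjusted p = 0.0103) lost it in 1 of these settings, normexp (0.116), and kept it without any 1 culture.

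**Figure D4:**
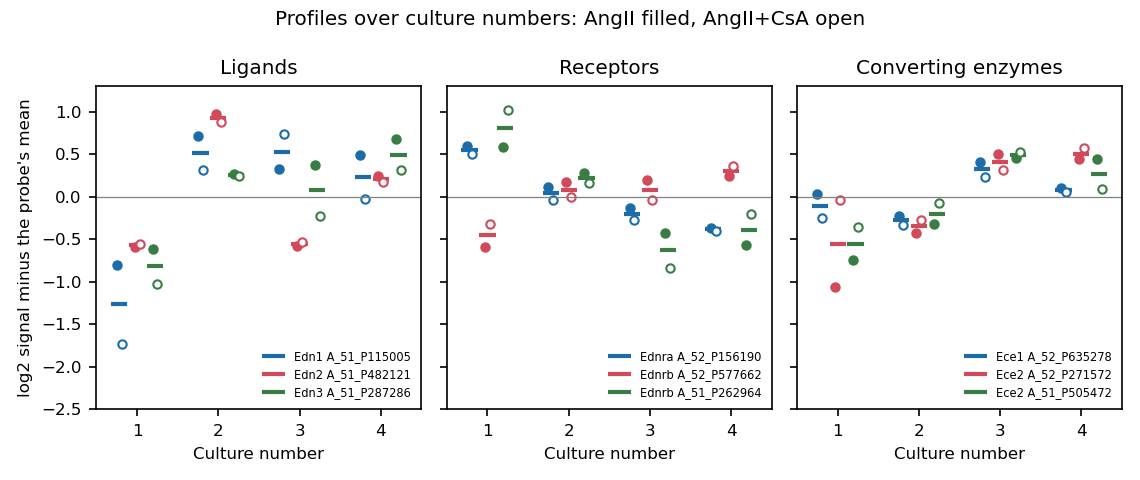
Log2 signal minus the mean of the probe over 8 arrays (vertical axis) by culture number (horizontal axis, names with no order) for ligands, receptors and converting enzymes. Filled points are AngII arrays, open points AngII+CsA arrays and bars their mean; Edn1 lies at -1.26 and Ednra at 0.55 in culture 1, and the Ednrb probes lie on opposite sides of 0 there (-0.46 and 0.80).

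Markers of other cells moved with the numbers too. Summed over the tested markers, the linear signal relative to the 75th percentile was 290 and 221 for 7 smooth muscle genes in culture 1 (AngII and AngII+CsA) and 709 to 1380 in the other 6 arrays. For 3 adventitial fibroblast genes it was 133 and 110 in culture 1 and 39.2 to 61.1 elsewhere, though such sums follow their brightest genes. By gene, the means of Acta2, Tagln, Cnn1, Smtn and Lmod1 were lowest in culture 1, and that of Myh11 was not (0.53, against 0.64, 0.48 and -0.05 in cultures 2 to 4). Pdgfra was highest in culture 1 (6.61, against 4.95 to 5.48) and so was Lum (4.51, against 2.63 to 3.18), while Pi16 was lowest there (-0.79, against -0.56 to -0.49). The part of these in the endothelin values was not tested, and in bulk RNA fewer cells of a type and less RNA per cell cannot be told apart. Endothelial markers, of interest because endothelium makes Edn1, were dim. Of 12 listed genes 8 were tested (Erg, Tek, Cldn5 and Robo4 above background on all 8 arrays, Vwf, Emcn, Esam and Nos3 on some), while Pecam1, Cdh5, Kdr and Tie1 were above background on fewer than 4 arrays. Their summed signal was 2 to 2.74 with AngII and 1.81 to 3.06 with AngII+CsA. All 8 had negative differences (median -0.22), none past the threshold in either fit. Such signs were not particular to endothelium. Schwann cell and melanocyte markers were lower in 5 of 5 (median -0.17) and adventitial fibroblast markers in 3 of 3 (-0.14). Smooth muscle markers were lower in 3 of 7 (0.01) and macrophage and leukocyte markers in 2 of 3 (-0.06). The median of all tested probes was -0.01, and it was -0.09 once the unfiltered dim ones were counted. In culture 1, where Edn1 was lowest, the endothelial sum was 2.61 and 1.95, but Erg is the brightest gene in it. By gene, the means of Cldn5, Robo4 and Nos3 were lowest in culture 1 and that of Emcn was highest there. Those of Erg, Tek, Vwf and Esam were neither. How these go with Edn1 was not tested. Of markers of Schwann cells and melanocytes, whose lineage carries the B receptor, Sox10 was at -0.22 ± 0.19 with AngII and at -0.33 ± 0.30 with AngII+CsA, and S100b at -0.29 ± 0.29 and -0.49 ± 0.28 (SD, n = 4 each). Neither passed the threshold in either fit. Macrophage and leukocyte markers summed to 1.71 to 3.58 and 2.12 to 3.30 over 3 of 5 (Cd68, Csf1r and Cd3e).

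The genes with the profile most like each member over the 8 arrays were found by Pearson correlation among 15914 named probes (15913 for Ednrb and Ece2). The arrays share slides by number, so a high correlation is common. For Ednra 1087 of these probes had r above 0.9, and for Edn1 80 did. Edn1 was most like Cst13 (r = 0.979), Flvcr2 (0.969) and Csrnp1 (0.962). Among the profiles most like Edn2 were Psmc2 (0.985) and Ccdc6 (0.979), and Edn3, undetected arrays included, was most like Ncam1 (0.994), Fgf8 (0.993) and Gdf5 (0.987). Ednra was most like Etnk1 (0.994), Prkcb (0.987) and Hp (0.987). The brighter Ednrb probe was most like Fndc11 (0.989), Ifitm5 (0.987) and Ttc21a (0.987). Ece1 was most like Umps (0.998), Pick1 (0.991) and Endog (0.990), and Ece2 like Ssc5d (0.984), Ltbp3 (0.981) and Nacc1 (0.980). The 8 arrays make these a description, with no test.

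Genes that work around the endothelins did not pass either, and those named from each list have its smallest unadjusted p on the groups alone. Of 12 genes for peptide processing and breakdown 9 were tested, 0 passed on the groups alone or with the block, and the median difference was -0.13. Pcsk6, a furin-like convertase, differed by -0.24 with AngII+CsA array 3 missing as an outlier spot (unadjusted p = 0.394, and 0.373 with the block, limma). Ide, the insulin-degrading enzyme, differed by 0.20 (unadjusted p = 0.436, and 0.102 with the block, limma). Furin, which makes the first cut of the endothelin precursors, had means of 7.48 ± 0.37 and 7.33 ± 0.28 in the AngII and AngII+CsA arrays (SD, n = 4 each). Of 29 genes for receptor signalling 26 were tested, 0 passed and the median was 0.11. Plcb1, a phospholipase C activated by Gq, differed by -0.46 (unadjusted p = 0.0956, and 0.0356 with the block, limma), and the kinase Rock1, which sustains contraction, by 0.38. Of 15 transcription factors known to act on Edn1 13 were tested, 0 passed and the median was 0.08. Arnt, the partner of hypoxia factors, differed by -0.24 and Gata4 by -0.15. Jun and Fos were not tested, being above background on fewer than 4 arrays at each probe. Of 28 other vasoactive peptides and receptors 19 were tested, 0 passed and the median was -0.03. Agt, the angiotensin precursor, differed by -0.30. Ucn2, a peptide related to corticotropin-releasing factor, was above background on 3 of 4 AngII+CsA arrays and on 1 of 4 AngII arrays, so it was tested mainly through its brighter group and no size or p is given. Over all tested probes the median was -0.01, and 0% and 0.0102% passed these fits.

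The promoter of Edn1 is shown because cyclosporin keeps NFAT, which binds the core GGAAA, out of the nucleus, and because Edn1 is known for GATA and AP-1 control. The 250 bases before its RefSeq start, at chr13:42301226-42301475 on the plus strand of GRCm38.p6, read with motif matches in capitals:
Edn1 promoter: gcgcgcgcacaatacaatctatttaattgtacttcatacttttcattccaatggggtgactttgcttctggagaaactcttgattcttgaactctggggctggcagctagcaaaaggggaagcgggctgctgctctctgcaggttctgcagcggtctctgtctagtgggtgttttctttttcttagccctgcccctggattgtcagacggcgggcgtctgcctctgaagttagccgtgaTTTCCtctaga
The search covered both strands of windows from 250 bases before to 50 after a start. For NFAT it looked for the core GGAAA, which reads TTTCC on the other strand. For GATA factors the letters were AGATAA, whose reverse complement is TTATCT. For AP-1 they were TGANTCA, the same on both strands. The Edn1 matches did not overlap. Edn1 held 1 GGAAA match, at -11 on the opposite strand, and 1 AGATAA match, past the printed stretch at position 9 after the start, also on the opposite strand. Ednra held 1 GGAAA match, Ece2 1, and the 4 start windows of Ece1 2 in all, while the windows of Edn2, Edn3 and Ednrb held 0. TGANTCA was found in 0 of the members' windows. Of 32851 windows of this length in the mouse, 61.3% held GGAAA, 11.2% AGATAA and 7.8% TGANTCA. A match is a description of letters, and these shares make GGAAA a common one. Sites that differ from these exact letters or lie outside the windows were not searched, so a count of 0 does not show that a site is absent. Whether these cells use the RefSeq start was not checked, so positions hold for that start only.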

How the data were processed

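Per the file headers, spots on the arrays (Agilent design 014868) were quantified by version 9.5.3.1 of Feature Extraction. The scanner files deposited by the authors hold linear intensity values per spot, with the software's background subtraction and its marks for background, outliers and saturation. The authors' deposited series table holds log2 values with a median of 3.01 in each column; the Spearman rho with the same array in the scanner files was 0.9999 or higher. Its normalization and scale constant are not given in the sources used here, and it served as an alternative. The sorted values of its columns differed by at most 0.00185, the pattern that quantile normalization leaves. It is therefore not an alternative separate from the quantile setting.

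Here, log2 of the processed signal was set to the 75th percentile of its array. Control and outlier spots were dropped, 0 spots were saturated, and spots of a probe were averaged. Probes well above background on at least 4 of 8 arrays were kept irrespective of group. Each probe was tested on its own with limma 3.58.1 in R 4.3.3 (lmFit, eBayes, two-sided), with Benjamini-Hochberg adjustment over all 19529 probes and a threshold of 0.05. The code was tested on simulated data. Same-numbered arrays share a slide and a scan per the file headers, and their deviations from the group mean had Pearson r of 0.70 to 0.86, against -0.76 to 0.25 for other pairings, so the numbers were taken as pairs. The labels call the cultures independent and do not say whether a number marks 1 preparation of cells.

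Genes were named from accessions in a RefSeq table (GRCm38.p6, 22951 probes), from a current symbol (6659) or as in the files (11564). Promoters are RefSeq's of that build. The members and gene lists were chosen with earlier results of these data known. Every member probe was to be named, and from each list up to 4 called genes, or the 2 of lowest p where none was called. The like-profile genes were the 3 highest correlations per member, and tested markers were named; a few of these genes are not reported here. Furin, Kdr and other markers below background, Jun, Fos and the within-array contrasts were added after values were seen. The number of arrays limits precision. Alternatives covered blocks, background correction, scaling, filters, outlier spots, the authors' table, 1 probe per gene, an intensity trend in the variance, and arrays left out. The normexp background correction added an offset of 50 to each signal. For dim probes, smaller ranges and lost calls under normexp cannot be told apart from the effect of that offset.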

Additional observations from a re-analysis of the deposited data

Results flagged for a closer look

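Of 18 groups of 4 arrays looked at (9 probes in 2 treatments), 1 held an array far from the others: the Ednrb probe A_52_P577662 read -1.45 in AngII culture 1, against -0.69 for the next lowest, a gap of 0.91 of the whole range. Chance flags about 1 group in 20. The AngII+CsA array of culture 1 was also the lowest of its group for this probe (-1.18), and the other Ednrb probe was highest in culture 1.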

How the results depend on the processing

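The count of endothelin probes called for cyclosporin was 0 under all 27 alternatives, and so was that of each of the 4 pathway lists. Over these alternatives the difference ran from -0.68 to 0.16 for Edn1 (other sign in 1 of 27), -0.29 to 0.08 for Ednra (2), -0.31 to 0.30 for Edn2 (9) and -0.25 to 0.00 for Ece1 (2). For Ednrb A_52_P577662 it ran from -0.20 to 0.10 (10 of 27), for A_51_P262964 from -0.26 to 0.36 (7 of 25), and for Edn3 from -0.61 to -0.06 (0 of 26). For Ece2 A_52_P271572 it ran from -0.03 to 0.49 (3 of 27) and for A_51_P505472 from -0.15 to 0.26 (6 of 24). The smallest adjusted p of any was 0.163, for Edn3 with the block under normexp. Over all probes the calls, 0 on the groups alone, were 2 with the replicate block, 8 with the random replicate block, 3 with the replicate block under normexp, 2 with the replicate block in the authors' table and 4 with the replicate block at 1 probe per gene. With the replicate block and no filter on dim probes they were 0. They were 0 when any 1 array, or with the block any pair, was left out. The pairing changed no call of an endothelin probe.

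For culture number, 13061 probes passed, 22022 when dim probes were kept and 8276 to 12014 with 1 number left out. Endothelin calls, 9 of 9, were 6 of 9 with normexp, 7 of 9 with quantile normalization and in the authors' table, and 9 of 14 with no filter, where 2 of the 9 lost their call. The calls with no filter thus included probes above background on no array. A pass for culture number therefore does not by itself show a difference in expression. Endothelin calls were 7 of 7 both for probes detected on all arrays and for 1 probe per gene, and 5 to 7 with 1 number left out, 5 without number 1, and the cause was not tested. Signals near background limit Edn3, and none of the 5 dim probes gives a level.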
